A study of Arabidopsis thaliana with 4 samples.

Results

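The genes that build a flower were examined for open chromatin in plants that had not yet flowered. They are LFY, which gives a meristem its floral identity, and the floral organ identity genes AP1, AP2, AP3, PI, AG, SEP1, SEP2, SEP3 and SEP4 of Arabidopsis thaliana, 10 genes of 27444 protein-coding genes on the nuclear chromosomes. All peaks that overlapped the span of such a gene or the 3 kb on either side of it were taken, 125 of 111206 nuclear peaks over the 4 accessions. Merged where they touched or overlapped, they formed 39 regions, of 36153 in all.

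The study profiled whole seedlings of the natural accessions Tsu-1, Est-1, Bay-0 and Bur-0 with DNase I-seq. In this assay DNA between a pair of nearby DNase I cuts is sequenced and accumulates where chromatin is open. Plants were 7 days old, from long days with 16 h light (22°C) and 8 h dark (20°C). Stratification lasted 2 to 4 days for all samples. There was 1 library and 1 peak list per accession, so differences between accessions could not be set against replicates and carry no p-value. All samples carried the line label UBQ10:NTF::ACT2:birA, a pair of INTACT transgenes that tag nuclei with biotin for capture, with promoters active in most cells. All labels also gave Col-0 as genetic background although the titles named the accessions above, and the series text wrote Tsu-0 for Tsu-1. In whole seedlings, a site open in few cells and a site open weakly in many cells cannot be told apart.

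By textbook knowledge, LFY is a transcription factor that turns a shoot meristem into a floral one and activates the organ identity genes. These act in classes by whorl. AP1 and AP2 belong to the A class for sepals and petals, AP3 and PI are partners in the B class for petals and stamens, AG is the C-class gene for stamens and carpels, and the SEP genes form the E class, whose proteins join the others into complexes. All organ identity genes but AP2 encode MADS-domain proteins. Most of these genes are silent before flowering and are known targets of Polycomb repression, whereas AP2 is also transcribed in leaves, where it delays flowering under the control of the microRNA miR172.

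The lists held 25298 nuclear peaks for Bur-0, 28821 for Bay-0, 29699 for Est-1 and 27388 for Tsu-1. Nearly all were 150 bp wide, and sequencing depth is unknown. The authors gave each peak a signal whose scaling between lists is not stated. Bur-0, the shortest list, lacked more shared calls than the others. Of regions called in the other 3 lists, 13.1% had no Bur-0 peak, where the same share was 3.50% to 5.60% for the rest. The part of list length in this was not tested. The signal is used here as a rank within its own list, a percentile with 100 at the top. All 3 leaf markers and all 5 root markers had a peak within 3 kb in every list, as did 2 of 3 shoot meristem markers, against 71.2% of all protein-coding genes. Leaf markers ranged from RBCS1A, a Rubisco subunit gene, at ranks of 97.1 to 98.4, to the trichome regulator GL2, at 21.3 to 44.3. Root markers ranged from the regulator SCR, at 69.3 to 77.8, to WOX5, at 13.5 to 28.8, and the root hair gene EXPA7, at 2.96 to 37.6. Among the shoot meristem markers, WUS ranked from 6.47 to 39.9 and CLV3 from 1.83 to 60.0, and STM had a peak in Bay-0 and Est-1 alone, at 5.25 and 5.40.

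Most of the flower genes had an open site within 3 kb, a share close to that of all genes. Fewer had one inside the gene, as was so over all genes. Peaks stood within 3 kb of 9 of the 10 genes for Bur-0, 10 for Bay-0, 10 for Est-1 and 9 for Tsu-1, against 75.7%, 82.2%, 82.7% and 78.6% of all protein-coding genes. In all 4 lists together, 8 of 10 had a peak (80.0%, exact Clopper-Pearson 95% interval 44.4 to 97.5%, which covers counting error only), against 71.2% of all genes. The exceptions were AG, without a peak in Tsu-1, and SEP4, without one in Bur-0. With Bur-0 left out, 9 of 10 had a peak in all remaining lists, against 75.5% of all genes. With 1 kb on each side, 6, 8, 7 and 8 of the 10 genes had a peak, in the order of lists above, against 60.3%, 68.1%, 68.9% and 63.4% of all genes, and 6 had one in all 4 lists, against 54.8%. AG and SEP2 had none in this window, where 25.9% of all genes had none. Within the gene span alone, the counts were 2, 2, 3 and 2, against 30.7%, 36.8%, 36.8% and 32.4%. LFY and AP2 had such a peak in all 4 lists, 2 of 10 against 22.7% of all genes. AP1 had one in Est-1 only, at its very end. The other 7 had none in any list (70%, exact 95% interval 34.8 to 93.3%), against 54.3% of all genes, a share inside that interval.

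**Figure D1:**
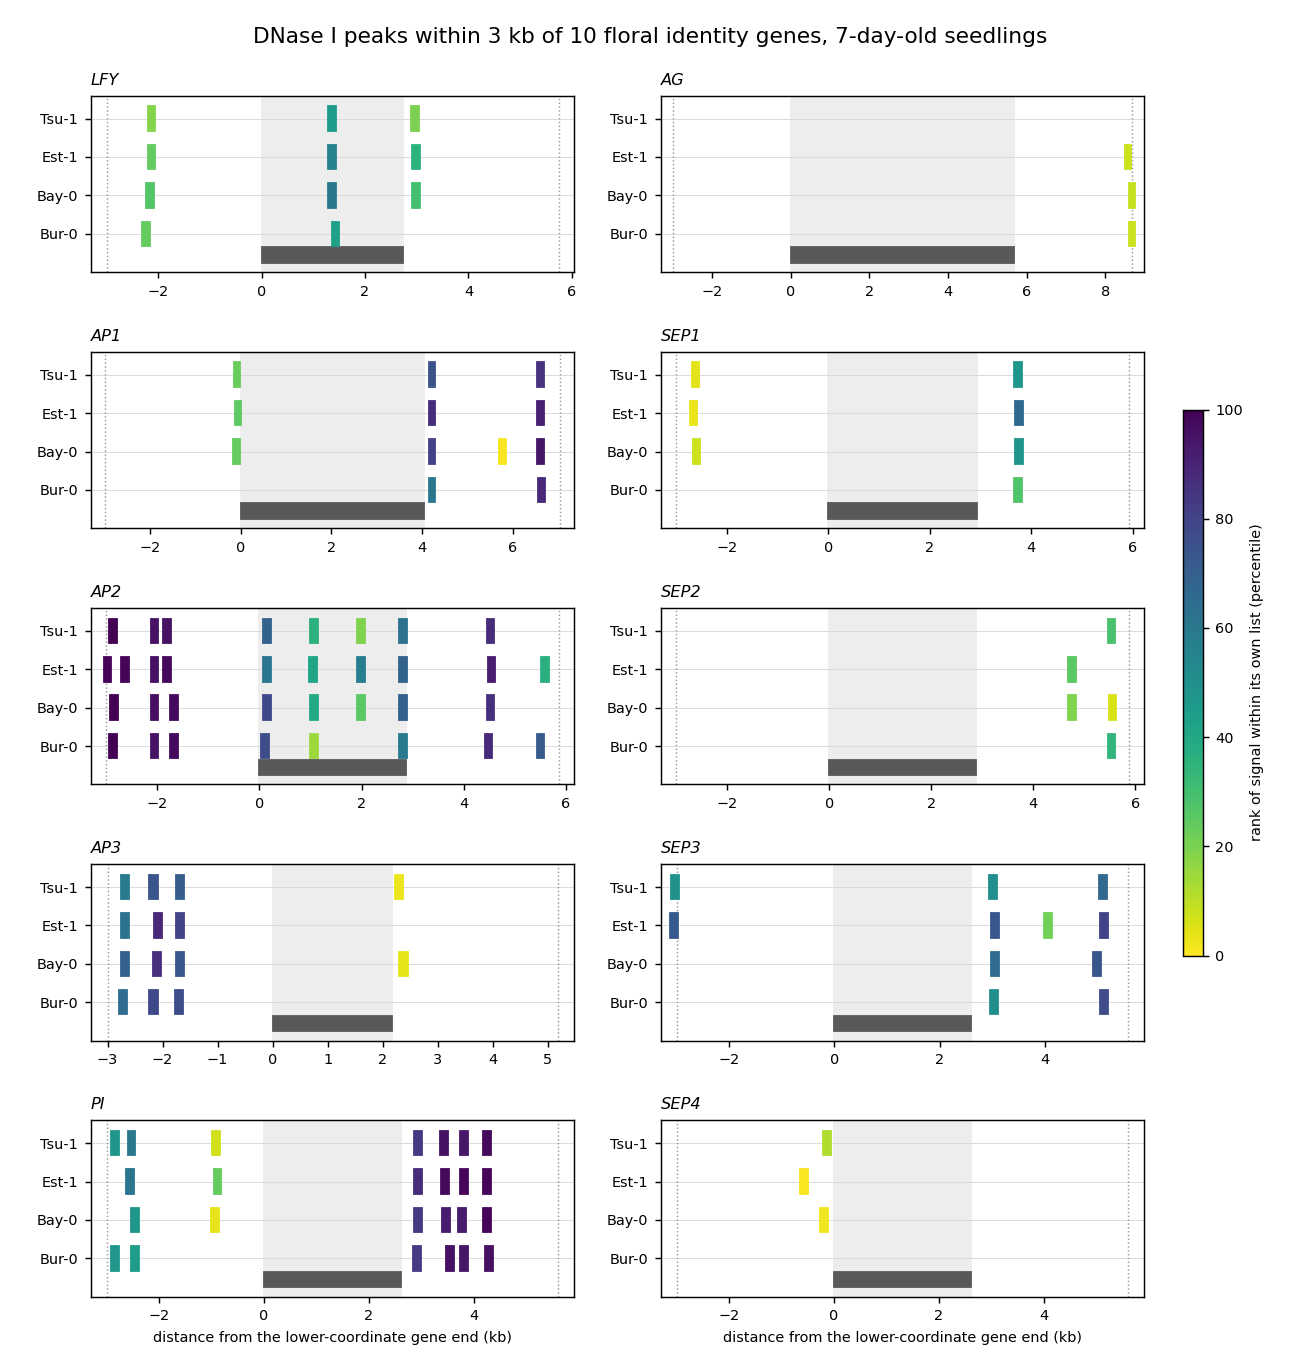
Position of each DNase I peak (blocks of 150 bp) around the 10 genes, with distance in kb from the gene end of lower coordinate on the x axis, 1 row per accession, the gene span in grey and dotted lines at 3 kb. Colour gives the rank of the authors' signal within its own list. AP2 and PI have groups of dark, high-ranking peaks outside the gene, and the span of AG is empty in every row.

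Ordered by their strongest peak within 3 kb, the genes ran from AP2 and PI at the top to AG and SEP4 at the bottom. AP2 ranked between 98.5 and 99.9 and PI between 96.0 and 98.7. AP1 ranked from 85.7 to 94.2, AP3 from 74.1 to 88.9 and SEP3 from 66.7 to 80.4. The ranges of neighbours in this order overlapped, except those of AP1 and PI, but by signal the 5 genes kept this order within each list. In Est-1, AP2 led PI only narrowly, with a signal of 646 against 642. LFY, with 42.9 to 60.0, and SEP1, with 27.6 to 65.4, overlapped and changed places between lists. SEP2 ranked from 19.2 to 34.4, below LFY in every list. AG and SEP4, where they had a peak, stood at 7.52 to 8.87 and at 0.783 to 11.8. The strongest peaks of PI, AP3, SEP3, SEP2 and AG lay in regions nearer to another protein-coding gene. Which gene such peaks belong to was not tested. With a gene that has no peak counted as 0, the median over the 10 genes was 60.0 for Bur-0, 66.7 for Bay-0, 72.9 for Est-1 and 57.0 for Tsu-1. The same median over all protein-coding genes was 44.7, 53.9, 53.6 and 48.0. The order depended on the window. With 1 kb on each side, PI led in every list, at 92.0 to 97.4, and AP2 ranked from 68.5 to 78.4, below AP1 in every list but Bur-0. In that window AP3 ranked at 3.55 in Bay-0 and 3.03 in Tsu-1 and had no peak in Bur-0 and Est-1. The order within 3 kb also depended on the measure. Ranked by the authors' −log10 p, which stops at 324, AP2 and PI tied in every list. AP1 tied with them in Bay-0, and AP1 and AP3 did so in Est-1. In Bur-0, SEP3 then stood above AP3.

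**Figure D2:**
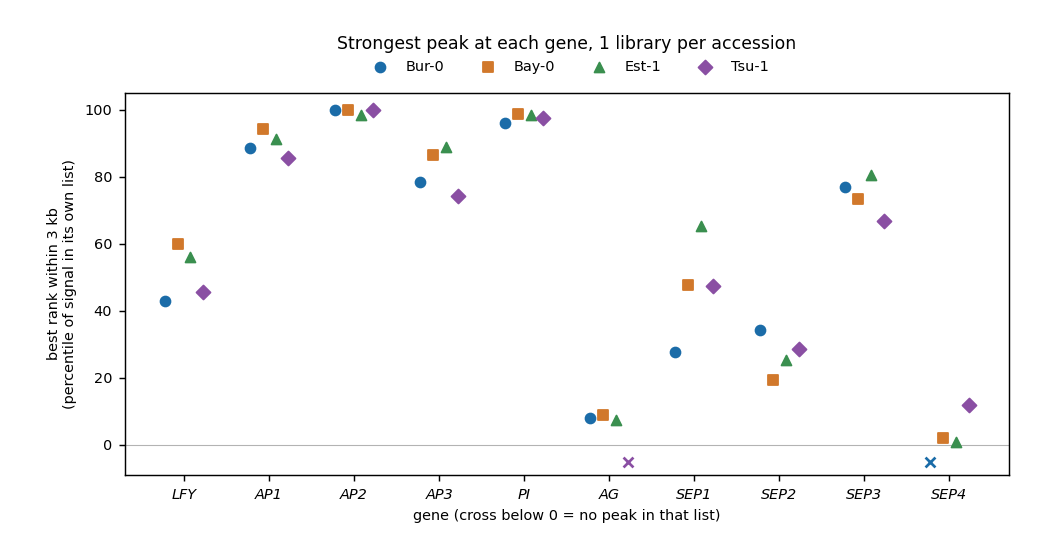
Rank of the strongest peak within 3 kb of each gene (y axis, percentile of signal within its own list), 1 point per accession and gene, with crosses below 0 for a list without a peak. AP2 and PI sit above 95 in every list, and AG and SEP4 sit below 12.

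LFY (AT5G61850), the meristem identity gene, was one of the few genes of the set with a peak inside the gene. That region (chromosome 5, 24845541 to 24845750) began 1293 bp from the gene end of lower coordinate and was called in every accession. Its signal was 117 for Bur-0, 183 for Bay-0, 190 for Est-1 and 100 for Tsu-1, with ranks of 42.9, 60.0, 56.0 and 45.6, near the middle of each list. A weaker region 2057 bp outside the gene (24841941 to 24842190) ranked from 18.4 to 27.3 in the 4 lists and overlapped the neighbouring gene GUT1. A region 151 bp beyond the other end (24847141 to 24847310) reached the neighbouring gene AT5G61865 and so lay nearer to that gene than to LFY. It ranked at 29.8 for Bay-0, 35.6 for Est-1 and 19.9 for Tsu-1. Bur-0 had no call there, and its own nearest peak lay 1390 bp away.

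AP1 (AT1G69120), which acts with LFY in meristem identity and specifies sepals and petals, had strong peaks on the side of higher coordinate, where the next protein-coding gene is 6912 bp away. The region 91 bp from the gene end (chromosome 1, 25986441 to 25986590) had the same boundaries in all 4 lists. Its signal was 152 for Bur-0, 273 for Bay-0, 382 for Est-1 and 174 for Tsu-1, with ranks of 60.0, 80.3, 87.7 and 74.9. A region 2491 bp from the gene (25988841 to 25989010) was stronger in each list, with ranks of 88.4, 94.2, 91.2 and 85.7 in the same order. At the opposite end, the region from 25982121 to 25982310 ranked from 22.7 to 24.8 in Tsu-1, Bay-0 and Est-1 and was not called in Bur-0, whose nearest peak was 4130 bp away. Bay-0 alone had a call at 25988001 to 25988150, at a rank of 0.801. Just past the 3 kb limit, at 3171 to 3191 bp, every list had a further peak, with ranks from 25.5 in Bay-0 to 81.2 in Est-1.

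AP2 (AT4G36920), whose protein also represses AG in the outer whorls, had the most peaks of the set. It held 10 regions and 34 peaks over the 4 lists, more peaks than 99.4% of protein-coding genes. Its strongest region (chromosome 4, 17397441 to 17397830) lay 2779 bp from the gene on the side of lower coordinate. The signal there was 1049 for Bur-0, 792 for Bay-0, 646 for Est-1 and 624 for Tsu-1, with ranks of 99.8, 99.9, 98.5 and 99.9. The best rank of AP2 was thereby above that of 97.7% of genes in Est-1 and 99.9% in each of the other lists. Bur-0 and Est-1 each had a further call at this site. That of Bur-0 (17397441 to 17397590), at rank 95, lay 3019 bp from the gene, just past the limit. That of Est-1 (17397901 to 17398050), at rank 98.5, formed a region of its own, with peaks of the other lists 70 to 90 bp away.

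Further AP2 regions stood on both sides of the gene and along it. The region from 17398481 to 17398630 had the same boundaries in every list and ranks of 95.5 to 96.2. In the adjoining region (17398721 to 17399010), which ranked from 95.4 to 97.5, the Bur-0 and Bay-0 peaks were centred 140 bp above those of Est-1 and Tsu-1. The next protein-coding gene on that side lies 7130 bp from AP2.

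Regions also lay within AP2, which the gene table does not divide into exons and introns. A region near the end of lower coordinate (17400641 to 17400830) ranked from 60.7 to 78.4, and one across the opposite end (17403341 to 17403490) from 59.2 to 69.6. Between them, the region from 17401581 to 17401750 ranked at 15.1 in Bur-0 and at 36.2 to 41.6 in the others. The region from 17402521 to 17402670 ranked at 25.5 for Bay-0, 57.8 for Est-1 and 19.2 for Tsu-1 and had no call in Bur-0. Outside the gene on this side, a region at 1551 bp (17405021 to 17405230) ranked from 86.3 to 92.3, but it was nearer to the gene AT4G36925, 570 bp away. The last region (17406041 to 17406270) was called in Bur-0, at rank 71.6, and in Est-1, at 36.6. At 3291 bp, past the limit, Bur-0, Bay-0 and Est-1 had another strong peak, with ranks of 97.2, 93.9 and 89.9.

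The B-class partners PI (AT5G20240) and AP3 (AT3G54340) had no peak inside the gene in any list and a row of peaks to one side. PI held 7 regions and 25 peaks, more than 96.0% of genes. The row stood on the side of higher coordinate, 225 to 1565 bp from PI, and all 4 of its regions were called in every accession. The nearest (chromosome 5, 6831741 to 6831910) ranked from 82.7 to 87.6, the next (6832261 to 6832530) from 92.0 to 97.4, and the one after it (6832601 to 6832790) from 92.7 to 98.3. The last (6833081 to 6833270) held the strongest peak at PI in each list, with signals of 414 for Bur-0, 579 for Bay-0, 642 for Est-1 and 382 for Tsu-1 and ranks of 96.0, 98.7, 98.5 and 97.4. It lay nearer to the next gene, DIN10, than to PI, at 293 against 1565 bp, and so did the one before it, at 773 against 1085 bp.

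On the other side of PI the peaks were weaker. The region from 6826281 to 6826510, which overlaps the neighbouring gene BCB, ranked from 44.7 to 61.3 in the 4 lists. A region 813 bp from PI (6827901 to 6828090) ranked at 3.55 for Bay-0, 23.6 for Est-1 and 7.39 for Tsu-1 and had no Bur-0 call. The region from 6825981 to 6826130 was called in Bur-0 and Tsu-1, at ranks of 46.5 and 47.4.

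AP3 had 3 regions in all 4 lists, and each overlapped its neighbour WRI1, the gene of a transcription factor for seed oil synthesis, 1609 to 2609 bp from AP3. The middle one (chromosome 3, 20116901 to 20117130) was the strongest in each list, with signals of 216 for Bur-0, 320 for Bay-0, 395 for Est-1 and 171 for Tsu-1 and ranks of 78.4, 86.4, 88.9 and 74.1. The outer one (20116341 to 20116530) ranked from 58.8 to 69.8 and the inner one (20117361 to 20117530) from 70.5 to 80.0. Beside AP3 itself there was a single weak region, 46 bp beyond the end of higher coordinate (20121361 to 20121590), with ranks of 3.55 in Bay-0 and 3.03 in Tsu-1 and no call in Bur-0 and Est-1. Which gene the peaks at WRI1 belong to was not tested.

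AG (AT4G18960), the C-class gene, had no peak along its 5684 bp span in any accession. A large intron of AG is known to hold elements that control it in flowers. The only region within 3 kb (chromosome 4, 10391361 to 10391610) lay 2821 bp away, on the far side of the neighbouring gene AT4G18970 and 62 bp from that gene. The signal there was 69 in Bur-0, 73 in Bay-0 and 73 in Est-1, and Tsu-1 had no call. The ranks were 8.04, 8.87 and 7.52. The authors' −log10 p values were 3.97, 11.2 and 7.76.

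The stretch around AG without any peak measured 16110 bp for Bur-0, 16110 bp for Bay-0, 16090 bp for Est-1 and 18670 bp for Tsu-1, and 16010 bp were free of peaks in all 4 lists. Among 1664 protein-coding genes within 20% of the length of AG, the median longest stretch touching the gene was 11790, 9730, 9540 and 10740 bp in the same order. The stretch at AG was longer than that of 67.3% of these genes for Bur-0, 77.0% for Bay-0, 77.6% for Est-1 and 78.1% for Tsu-1, and of 84.3% with stretches free in all 4 lists. In Bur-0, other genes of the set stood higher among genes of their own length, namely SEP3 at 89.9%, SEP2 at 80.6%, AP3 at 72.9% and LFY at 69.5%. In Est-1, AP3 stood higher than AG, with a stretch of 14550 bp at 81.7%. Of the 1664 genes near AG in length, 42.7% had no peak inside the span in any list.

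**Figure D3:**
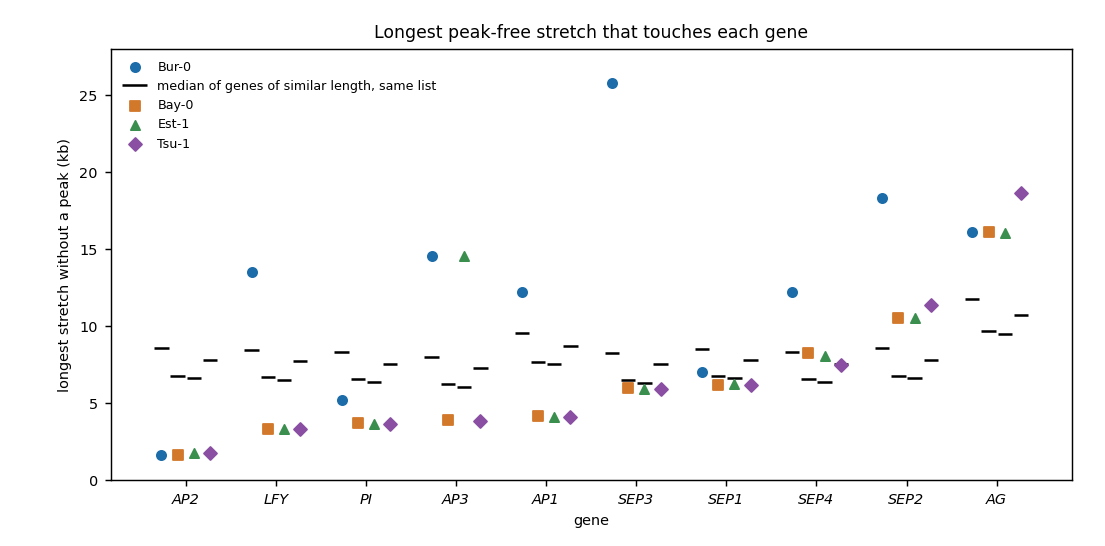
Longest stretch without a peak that touches each gene (y axis, kb), with 1 point per accession and black bars for the median of genes within 20% of its length in the same list. AP2 has the shortest stretches, AG lies above its bars in every list, and Bur-0 has the longest stretch at every gene but AP2 and AG.

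Among the E-class genes, SEP3 (AT1G24260) had the peak of highest rank in each list and SEP4 (AT2G03710) the lowest or none. SEP3 had no peak inside the gene and a pair of regions called in all 4 lists on the side of higher coordinate. The nearer (chromosome 1, 8596481 to 8596670), 357 bp from the gene, ranked at 51.1 for Bur-0, 64.9 for Bay-0, 73.3 for Est-1 and 50.6 for Tsu-1. The farther (8598461 to 8598730), at 2337 bp, had signals of 210, 235, 312 and 146 in the same order and ranks of 77.0, 73.4, 80.4 and 66.7. Between them, Est-1 alone had a call (8597521 to 8597670), with a signal of 102 at rank 21.5. At the opposite limit of the window, a region (8590381 to 8590570) ranked at 71.9 in Est-1 and 49.0 in Tsu-1, and its Bay-0 peak, at 20.7, lay 3005 bp from the gene and so just outside. Bur-0 had no call there, and the peak-free stretch over SEP3 in Bur-0 was 25770 bp, against 5910 to 5990 bp in the other lists.

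SEP1 (AT5G15800) and SEP2 (AT3G02310), a closely related pair with overlapping functions, differed in where their peaks stood. SEP1 had a region 747 bp from its end of higher coordinate (chromosome 5, 5155001 to 5155170), with signals of 95 for Bur-0, 149 for Bay-0, 226 for Est-1 and 103 for Tsu-1 and ranks of 27.6, 47.8, 65.4 and 47.4. Another region, overlapping the neighbouring gene AT5G15790 (5148601 to 5148810), ranked from 3.28 to 7.66 in Tsu-1, Bay-0 and Est-1 and was not called in Bur-0. SEP2 had no peak within 1 kb in any list. Its regions lay 1809 bp (chromosome 3, 468961 to 469110) and 2589 bp (469741 to 469910) from the gene, both nearer to AT3G02320. The first was called in Bay-0 and Est-1, at ranks of 19.2 and 25.2, and the second in Bur-0, Bay-0 and Tsu-1, at 34.4, 5.86 and 28.6. Every list had a peak near SEP2, but no region there was shared by all 4.

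SEP4 had weak calls just outside its end of lower coordinate and none in Bur-0. The region 58 bp from the gene (chromosome 2, 1128961 to 1129170) had a signal of 61 in Bay-0 and 54 in Tsu-1, with ranks of 2.09 and 11.8. Est-1 had a peak 498 bp from the gene (1128581 to 1128730) with a signal of 58, at rank 0.783. The authors' −log10 p values of these peaks were 4.58, 6.64 and 3.47, against the lowest values of 3.32 to 3.40 in the lists. The nearest Bur-0 peaks were 4610 bp and 4230 bp from these regions. When each list was cut to the length of the shortest, 25298 peaks by signal, SEP4 was called in Tsu-1 alone and AG in Bur-0 alone.

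Over all 39 regions the sharing between accessions was close to that of the genome. A peak in all 4 lists was found in 22 regions (56.4%, exact 95% interval 39.6 to 72.2%), against 54.3% of all regions. This interval takes regions as independent and is too narrow where they cluster at a few genes. AP2 and PI held 10 and 7 of the 39 regions, and 7 and 5 of the 22. Of the 39 regions, 18 lay nearer to another protein-coding gene than to the gene of the set, among them 9 of the 22. The strength of the shared regions was uneven. Of the 22, 6 ranked above 90 in every list, 27.3% against 7.29% of all regions in 4 lists, and all 6 stood at AP2 and PI. The median of the lowest rank was 68.6 for the 22 regions and 47.6 for all regions in 4 lists. The span from lowest to highest rank over the accessions had a median of 9.93 percentile points, against 17.6 for all regions in 4 lists. A region near the top of every list can span only few percentile points. The comparison was not matched for rank, so whether the 22 regions varied less than others of like rank was not tested. The midpoints of the peaks in the 22 regions lay within 40 bp of each other at the median, as in all regions in 4 lists.

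Bur-0, the shortest list, had the fewest calls at these genes, as it had over all regions. Peaks stood in 26 of the 39 regions for Bur-0 (66.7%), 34 for Bay-0 (87.2%), 34 for Est-1 (87.2%) and 32 for Tsu-1 (82.1%), against 69.7%, 79.5%, 81.9% and 75.6% of all regions. Of the 28 regions held by the other 3 lists, 6 had no Bur-0 peak (21.4%), against 13.1% over all regions. They stood at 6 genes, LFY, AP1, AP2, PI, SEP1 and SEP3, and the nearest Bur-0 peak was 670 to 5930 bp away. The corresponding counts were 1 of 23 in Est-1 (at SEP2) and 1 of 23 in Tsu-1 (at AG), against 3.73% and 5.60% over all regions. Bay-0 lacked 0 of 22, which allows a share of up to 13.6%, against 3.50%. A single list held 4 of the 39 regions (10.3%), against 17.5% of all regions. Of these, 3 were in Est-1, at AP2, SEP3 and SEP4, and 1 in Bay-0, at AP1.

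Peaks were denser at 1 to 3 kb outside these genes than over all genes. Peak midpoints at 1 to 3 kb outside the genes numbered 17 for Bur-0, 18 for Bay-0, 19 for Est-1 and 16 for Tsu-1, which is 0.425, 0.45, 0.475 and 0.40 peaks per kb. Over all protein-coding genes the same density was 0.231, 0.265, 0.273 and 0.251. The exact Poisson 95% intervals of the 10 genes, which cover counting error only, began at 0.248, 0.267, 0.286 and 0.229, so that the Tsu-1 interval held the value of all genes. These intervals take peaks as independent and are too narrow where peaks cluster at a few genes. Without AP2 and PI, a choice made after their values were seen, 8, 11, 10 and 8 midpoints remained. The density was then 0.25, 0.344, 0.313 and 0.25. The Bur-0 and Tsu-1 values were then near those of all genes. Within 1 kb outside the genes, the density was 0.25 in Bur-0 and 0.45 to 0.50 in the other lists, against 0.387 to 0.462 over all genes. The space to the neighbouring genes, both sides added, had a median of 3912 bp for the 10 genes and 1856 bp for all genes, and its part in the density was not tested.

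Genes related to these in sequence or function also ranged widely. Of 34 genes on 5 further lists (other floral MADS genes, AP2-type repressors, regulators of floral identity, organ development genes and Polycomb genes), 24 had a peak within 3 kb in all 4 lists, 6 in some and 4 in none, against 71.2% of all genes in 4 lists and 13.3% in none. All 5 AP2-type repressor genes, relatives of AP2 that delay flowering, had a peak in every list. Their median best rank was 88.9 for Bur-0, 95.6 for Bay-0, 93.1 for Est-1 and 93.1 for Tsu-1, the highest of the 5 lists. The Polycomb genes had the lowest, 3.94, 22.4, 17.6 and 9.58 in the same order, with a gene without a peak counted as 0. Over all 34 genes the median was 29.6, 48.9, 41.3 and 49.3, against 44.7, 53.9, 53.6 and 48.0 over all protein-coding genes. TOE3 and TOE1 of this list had the highest lowest ranks of the 34 genes, 94.4 and 93.1.

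Close relatives differed in these calls. CAL, the nearest relative of AP1, had no peak within 3 kb in any list, where AP1 had 12 peaks over the 4 lists. In the clade of AG, SHP1, which acts in fruit opening, had a peak in every list at ranks of 45.0 to 57.5. Its partner SHP2 had a peak in Tsu-1 only, at 25.6, and the ovule identity gene STK in Tsu-1, Bay-0 and Est-1, at 14.3 to 22.3. UFO, the F-box partner of LFY, and SUP, which limits stamen number, had none in any list. TFL1, which keeps the shoot apex from forming a flower, had one in Est-1 only, at 0.466, and JAG, a gene of petal and leaf growth, in Tsu-1, Bay-0 and Est-1, at 11 to 29.4. Of 6 Polycomb genes, CLF, SWN and EMF1 had a peak in every list. FIE lacked one in Tsu-1, EMF2 had one in Bay-0 and Est-1, and LHP1 had none.

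By mean absolute difference in best rank over the 4 lists, each flower gene with a peak in all 4 was paired with the closest of these 34. The smallest differences were 1.25 percentile points for PI with TOE3 and 1.39 for AP1 with SPL, a regulator of anther cells. The next was 2.80, for AP2 with TOE3. For the remaining genes it was 3.38 (SEP2) to 6.02 (SEP1), and AG and SEP4 were not paired. Only the 24 genes with a peak in all 4 lists were compared. Genes near the top of every list can differ by only few percentile points. Whether these pairs were closer than other genes of like rank was not tested.

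**Figure D4:**
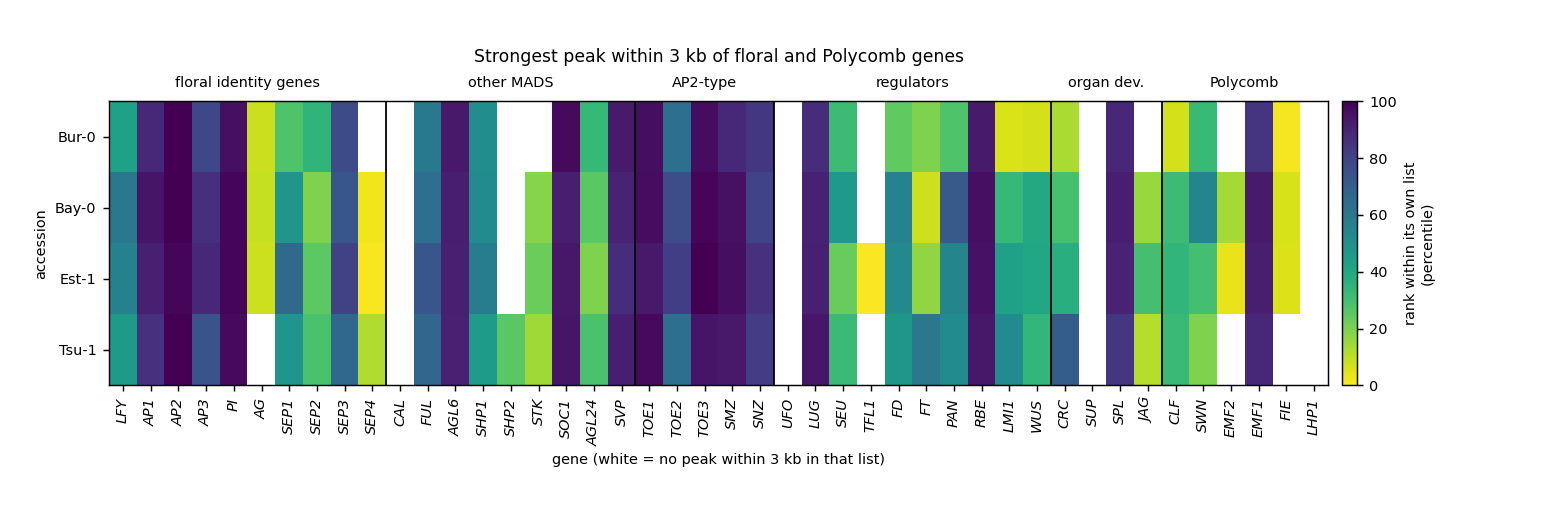
Rank of the strongest peak within 3 kb (colour, percentile within its own list) for the 10 floral identity genes and 34 related genes on the x axis, with 1 row per accession and white cells for no peak. The AP2-type repressors are dark in every row, and CAL, UFO, SUP and LHP1 are white throughout.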

How the data were processed

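DNase I-seq peak lists of 4 seedling samples, 1 per accession, were grouped by the accession in the source label. Per the labels' protocols, DNase I (45 units, 3 min, 25°C) was applied to nuclei captured by biotin, and small fragments were sequenced. The submitters' processing notes name Bowtie 0.12.7 and TAIR10. Peak caller, threshold and depth: not given in the sources used here. The authors deposited a whole-number signal for each peak, its scaling not stated, and a −log10 p that stops at 324.

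Peaks on the 5 nuclear chromosomes were ranked by signal within each list, ties averaged. A gene was called where a peak overlapped its span plus 3 kb by at least 1 bp. Gene names and spans came from a RefSeq table of assembly TAIR10.1, which gives no strand or exons. Regions slid over gene ends matched best at shifts of at most 100 bp on each chromosome. Region ranks include peaks of a region that reach past the window. No sequence was available, so planned motif and protein descriptions were not made.

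Python 3.11.15, pandas 2.3.3, numpy 2.4.6 and scipy 1.17.1 were used, and each step was tested on simulated data. The genes, lists and naming rule were chosen with earlier results of these data known. The rule names all 10 genes, related genes not called in all 4 lists, the 2 with the highest lowest rank and the 3 closest patterns; others are examples chosen after their values were seen.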

Additional observations from a re-analysis of the deposited data

How the results depend on the processing

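No paired analysis was possible because each accession has 1 library and no result comes from a test. With the gene span alone, called genes numbered 2 for Bur-0, 2 for Bay-0, 3 for Est-1, 2 for Tsu-1 and 2 in all 4 lists, against 30.7%, 36.8%, 36.8%, 32.4% and 22.7% of all genes. With the stronger 50% of each list they numbered 5 for Bur-0, 6 for Bay-0, 7 for Est-1, 5 for Tsu-1 and 5 in all 4 lists, against 46.4%, 52.7%, 52.6%, 48.4% and 39.7%. AP1, AP2, AP3, PI and SEP3 were called in each, with LFY in Bay-0 and Est-1 and SEP1 in Est-1. The count in all 4 lists was 6 with 1 kb on each side (54.8% of all genes), 8 with lists of equal length (67.8%) and 6 with only peaks nearest to the gene (42.3%). Leaving out 1 accession gave 8 to 9, against 71.7% to 75.5% of all genes, with 9 without Bur-0 and 9 without Tsu-1.

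Regions in all 4 lists numbered 20 of 35 with peaks merged up to 150 bp apart (57.1%, against 60.4% of all regions) and 17 of 47 where an overlap had to cover 50% of both peaks (36.2% against 40.4%), both below the share over all regions. They numbered 17 of 24 in the stronger 50% (70.8% against 49.6%), 22 of 35 with equal lists (62.9% against 56.0%) and 9 of 16 with 1 kb on each side (56.2% against 54.3%). The median best rank with 1 kb on each side was 35.3 for Bur-0, 53.9 for Bay-0, 60.7 for Est-1 and 46.5 for Tsu-1, against 17.4, 27.8, 28.2 and 22.0 over all genes. Ranked by −log10 p within 3 kb, the median was 63.0, 74.1, 73.5 and 60.8, against 43.4, 51.9, 51.9 and 46.4 over all genes. The −log10 p stops at 324, a value that 31 peaks at the 10 genes reached, so it does not order the strongest peaks. The density without AP2 and PI was added after seeing the data. Depth is unknown, so a missing call is no measure of closed chromatin. The planned motif and protein descriptions were not run, for want of sequence.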
